A study of Caenorhabditis elegans with 15 samples.

Results

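Transcripts of 9 germline and P granule genes were followed in early Caenorhabditis elegans embryos over 4 h after collection. The genes were nos-2, gld-1, meg-1, pgl-1, pgl-3, deps-1, glh-1, glh-2 and glh-4, out of 17138 genes that had a probe set of their own on the Affymetrix array. They were chosen by symbol, and all 9 had a probe set annotated to them alone. Where several probe sets were annotated to a gene alone, the brightest on average over the 15 arrays stood for it. Those whose name ends in _s_at can match more than a single transcript, and levels are not compared between genes. The embryos came from wild-type hermaphrodites of strain N2 whose body cavity had been injected more than 12 h earlier with a mixture of dsRNAs targeting pal-1, lit-1 and mex-1. They were dissected out at the 2- to 4-cell stage and kept at room temperature for 0, 1, 2, 3 or 4 h before total RNA was taken, with 3 samples at each time. Every sample carried the triple RNA interference and no untreated embryos are analysed here, so what the dsRNA did to these transcripts cannot be told apart from normal development. MEX-1 is itself a component of P granules and is needed for germ cells to form, LIT-1 is a Nemo-like kinase of Wnt signalling, and PAL-1 is a Caudal-related homeodomain protein.

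P granules are droplets of RNA and protein that mark the germline of the worm. They are loaded into the oocyte, gather at the posterior of the zygote, and are passed at each unequal division to the P blastomere until the primordial germ cells inherit them. The mother supplies most of the RNA that codes for their proteins. In the early embryo maternal RNA is lost from the somatic cells, while some of it, nos-2 RNA among it, is kept longer in the P lineage.

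All 9 transcripts had 0 h means above the background mark defined below and had lower means at every later time. nos-2 and deps-1 had the largest measured changes among the 9 between 0 h and 4 h. Of the rest, meg-1, gld-1, pgl-1, glh-2, glh-1 and pgl-3 had differences between -1.26 and -3.0 on the log2 scale, and glh-4 ended below background, so its change is known as a bound only. By linear modelling in limma, 8 of the 9 were lower at 4 h than at 0 h at an adjusted p under 0.05, the exception being glh-2. Of all 22548 probe sets 9.57% were called lower in the same comparison and 7.11% higher, and none of the 9 was higher. The median change of the 9 between 0 h and 4 h was -1.91, beside 0.09 for all probe sets. Over the 5 times together the F test called 8 of the 9, against 20.5% of all probe sets. The samples were whole embryos, so a smaller share of cells holding a transcript and less of it per cell cannot be told apart. Nothing in the labels says that the 3 independent samples of each time had different mothers or days, and p-values thus cover only sample-to-sample spread, possibly technical.

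Values are log2 units of robust multi-array average (RMA) expression, and background was marked at 3.22, the maximum reached by the 15 background control probe sets. The 5 yeast control probe sets were not used for the mark, and they reached 5.02 with a median of 3.17. The 0 h means of meg-1 (4.78) and glh-4 (4.07) lay below 5.02. Array medians ran between 3.17 and 3.42, the highest on 1 h B. The added hybridisation controls had array means of 9.52 to 11.1 at 4 h and 8.64 to 9.72 at 0 h. They had 9.74 to 11.7 at 1 h, where 1 h B was the highest of the 15 arrays. Their part in the changes was not tested beyond a scaling to them, under which all 9 genes still had negative changes. A pair of arrays carried conflicting labels (1 h B and 1 h C, placed at 1 h by their titles but at 2 h and 3 h by their time tags). Between arrays, 1 h A and 1 h C correlated at r = 0.981, and the lowest r within 1 h was 0.914. On 1 h B the yolk protein transcripts vit-4, vit-5 and vit-6, made in the adult intestine, read 8.58, 8.82 and 9.03. They read 3.06, 3.10 and 4.82 on 1 h A, and 3.15, 2.97 and 4.71 on 1 h C. On 0 h A, B and C vit-4 read 4.90, 5.03 and 3.50, vit-5 4.93, 5.84 and 3.65, and vit-6 5.13, 5.59 and 5.04. The arrays 0 h A and 0 h B thus read higher in vit-4 and vit-5 than 0 h C, 1 h A and 1 h C. Over all 30 measured yolk and sperm transcripts the array means were 3.81 to 3.86 at 0 h, 3.97 to 5.24 at 1 h and 4.05 to 4.15 at 4 h. In the same hour as the first losses of the 9 genes, 9 of these 30 were called higher at 1 h than at 0 h and 0 lower, beside 3.3% of all probe sets higher, with a median change of 0.62. All 9 were major sperm protein genes, whose probe sets can match several near-identical copies, such as msp-19 at 5.05, 6.70 and 6.01 at 1 h against 4.31, 4.04 and 4.35 at 0 h. The count was 6 without 1 h B, with a median of 0.31, and 0 without 1 h B and 1 h C, with a median of 0.23. The part of these transcripts in the first-hour differences was not tested. The 5 markers of the adult gonad sheath stayed at array means of 2.84 to 3.29 on all arrays, with 1 or 2 above the mark. Array means of the 13 early zygotic transcripts were 3.45 to 3.72 at 0 h. They reached 7.06 to 7.53 on the 1 h arrays and 6.60 to 6.77 on the 2 h arrays. By 3 h they were down to 4.32 to 4.55, still above the 0 h arrays, and by 4 h to 3.63 to 3.86. In these means 1 h B and 1 h C lay with 1 h A, above all 2 h and 3 h arrays. Which of the conflicting labels is right was not tested.

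**Figure D1:**
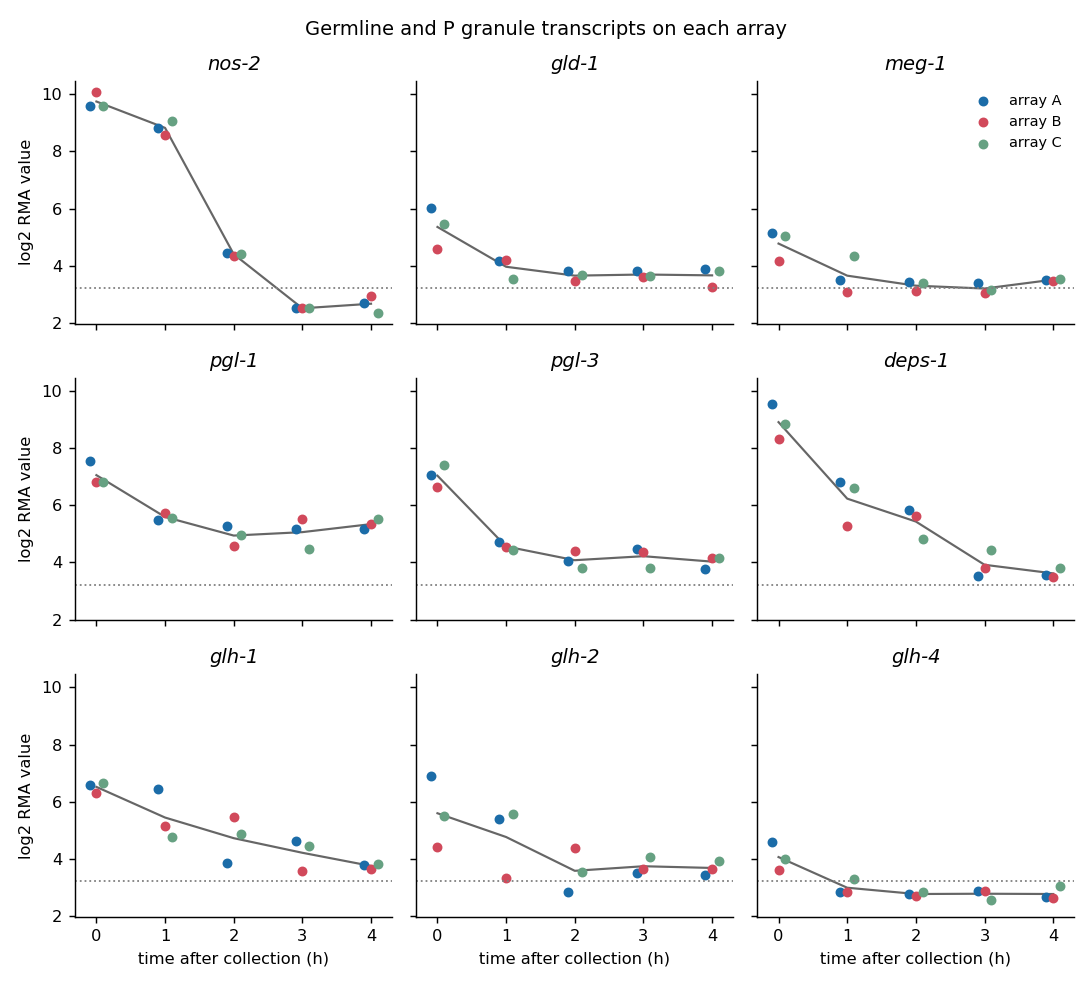
Log2 RMA value of each of the 9 transcripts (vertical axis) on every array against time after collection in hours (horizontal axis). Points are single arrays A, B and C, the line joins the means of 3 arrays, and the dotted line is the background mark of 3.22. nos-2 stays high at 1 h and drops between 1 h and 2 h, whereas pgl-3 and deps-1 are already far below their 0 h values at 1 h.

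nos-2 encodes a Nanos-related RNA regulator that the primordial germ cells need. Its probe set read 9.58, 10.07 and 9.58 at 0 h, then 8.81, 8.58 and 9.07 at 1 h. At 2 h the arrays gave 4.44, 4.36 and 4.42, at 3 h all 3 gave 2.52, and at 4 h they gave 2.71, 2.96 and 2.37. No array of any later time reached the 0 h values, and the 2 h arrays stood more than 4 log2 units below every 1 h array. In the first hour the mean fell by 0.92 (adjusted p = 0.0041 in limma), which was 13.1% of the change between 0 h and 4 h. The second hour brought a change of -4.41 ± 0.17 (SE, adjusted p = 1.6e-08 in limma), which was 62.5% of it, and the third a further -1.89 (adjusted p = 2.6e-05). Between 0 h and 4 h nos-2 fell by 7.06 ± 0.17 (SE, adjusted p = 1.7e-10). Since the 3 h and 4 h means lay below the background mark, the difference is a bound, and nos-2 was at least 91.9-fold lower at 3 h and at 4 h than at 0 h. The hourly shares and the third-hour step rest on the same fitted values. The true shares of the first and second hour may therefore be smaller.

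A separate probe set shared by nos-2 and T02G5.11 had the same shape. Its means were 10.02 at 0 h and 8.87 at 1 h, then 5.35, 3.64 and 3.51 in the 3 later groups in order of time. The 2 h mean was 3.51 below the 1 h mean (adjusted p = 8e-06 in limma). On 1 h B and 1 h C nos-2 read 8.58 and 9.07, beside 8.81 on 1 h A, whereas it was at most 4.44 on the 2 h arrays and 2.52 on the 3 h arrays.

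gld-1 encodes a STAR-family protein that represses translation in the adult germline, and it behaved differently. It read 6.03, 4.60 and 5.45 at 0 h and 4.16, 4.22 and 3.53 at 1 h. Afterwards it stayed between 3.28 and 3.90. All later arrays lay below all 0 h arrays, and 82% of the change between 0 h and 4 h came in the first hour. gld-1 was 1.69 ± 0.31 lower at 4 h than at 0 h (SE, adjusted p = 0.0016 in limma). Its dimmer probe set changed by -0.42 over the same span and did not pass the threshold (adjusted p = 0.21), with means of 3.29 at 4 h and 3.71 at 0 h, close to background.

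meg-1 encodes a disordered P granule protein that is needed maternally for germ cells to survive. It read 5.14, 4.16 and 5.04 at 0 h, and 3.52, 3.10 and 4.35 at 1 h. From 2 h on it lay between 3.04 and 3.56, near the background mark. The 1 h and 0 h arrays overlapped, because 1 h C stood above 0 h B, while the arrays of 2 h, 3 h and 4 h were all below those of 0 h. meg-1 was 1.26 ± 0.30 lower at 4 h than at 0 h (SE, adjusted p = 0.0095 in limma). Both of its dimmer probe sets were lower as well and ended with all 4 h arrays at or below the mark, so they give bounds of at least 2.15-fold (adjusted p = 0.00091) and at least 3.26-fold (adjusted p = 9.4e-06).

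PGL-1 and PGL-3 are the related RGG-box proteins that form the body of the P granule. pgl-1 read 7.55, 6.81 and 6.80 at 0 h, 5.49, 5.73 and 5.55 at 1 h, and 5.16, 5.35 and 5.52 at 4 h. pgl-3 read 7.07, 6.62 and 7.41 at 0 h, 4.71, 4.54 and 4.42 at 1 h, and 3.79, 4.15 and 4.15 at 4 h. Both genes thus separated fully from their 0 h values within the first hour. Most of their net change between 0 h and 4 h came then, 85.5% for pgl-1 and 82.5% for pgl-3. The mean of pgl-1 was lowest at 2 h, at 4.94, so its later shares were 38%, -6.75% and -16.7%. pgl-1 was 1.71 ± 0.27 lower at 4 h than at 0 h (SE, adjusted p = 0.00062 in limma) and kept a mean of 5.34, above the mark. pgl-3 was 3.0 ± 0.23 lower (SE, adjusted p = 1.2e-06), an 8.01-fold lower level, with a mean of 4.03 left at 4 h.

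deps-1 encodes a protein that P granules need to assemble. It read 9.53, 8.32 and 8.85 at 0 h and 6.82, 5.27 and 6.61 at 1 h. It read 5.84, 5.61 and 4.82 at 2 h, 3.52, 3.80 and 4.44 at 3 h, and 3.56, 3.48 and 3.82 at 4 h. Its arrays stepped down through 3 h, with 50.5% of the change in the first hour, 15.3% in the second and 28.5% in the third. deps-1 was 5.28 ± 0.42 lower at 4 h than at 0 h (SE, adjusted p = 1.8e-06 in limma). The third-hour change of -1.50 did not pass the threshold (adjusted p = 0.11), although every 3 h array was below every 2 h array; with 1 h B left out it did (adjusted p = 0.031).

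GLH-1, GLH-2 and GLH-4 are Vasa-related RNA helicases of the P granule. glh-1 read 6.59, 6.30 and 6.67 at 0 h, 6.44, 5.14 and 4.78 at 1 h, and 3.80, 3.65 and 3.84 at 4 h. It declined in smaller steps, with 38.6%, 26.3%, 18.5% and 16.6% of its change in the successive hours, and 1 h A still lay among the arrays of 0 h. glh-1 was 2.76 ± 0.45 lower at 4 h than at 0 h (SE, adjusted p = 0.00068 in limma), and its dimmer probe set was lower too (adjusted p = 0.0013), with a 4 h mean of 2.94 below the background mark and a 0 h mean of 4.62. At 1 h the brighter probe set had changed by -1.06 (adjusted p = 0.19) and the dimmer by -1.05 (adjusted p = 0.043).

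glh-2 was the most scattered of the 9. It read 6.89, 4.42 and 5.50 at 0 h, 5.40, 3.35 and 5.57 at 1 h, and 3.46, 3.67 and 3.93 at 4 h. All 4 h arrays lay below all 0 h arrays, but the 0 h arrays themselves were far apart. Its difference of -1.91 between 4 h and 0 h had a 95% confidence interval of -3.31 to -0.52 and did not pass the threshold (adjusted p = 0.064 in limma). Without 0 h B, the lowest of the 0 h arrays, the difference was -2.50 (adjusted p = 0.02 in limma). Without 1 h B the unchanged difference passed too (adjusted p = 0.021). Array 0 h B was also the lowest at 0 h for pgl-3, glh-1, glh-4, deps-1, meg-1 and gld-1, and the highest for nos-2. The reason was not tested. glh-4 read 4.58, 3.62 and 4.00 at 0 h and no more than 3.30 on any later array. Its means at 2 h, 3 h and 4 h were below the background mark, so it was at least 1.8-fold lower at each of these times than at 0 h, with an adjusted p of 0.001 for 4 h against 0 h in limma.

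**Figure D2:**
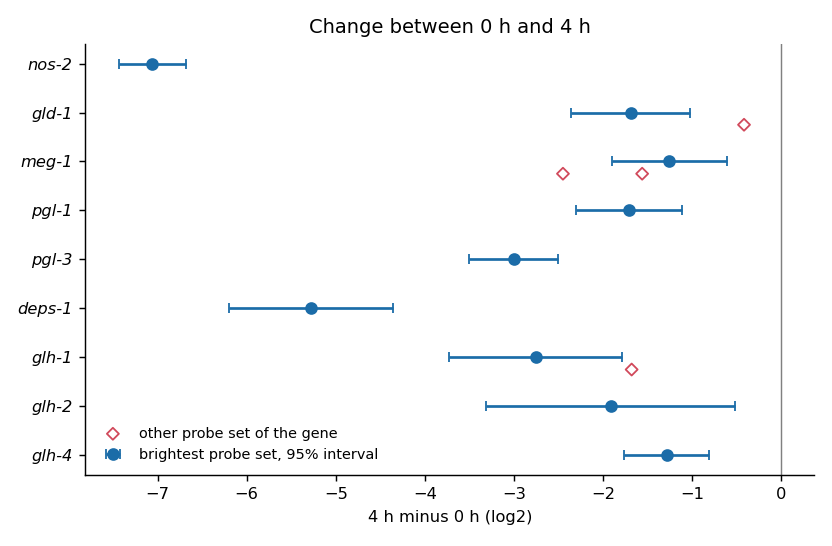
Difference between the 4 h mean and the 0 h mean in log2 units (horizontal axis) for each of the 9 genes (rows). Circles with bars are the brightest probe set and its 95% confidence interval in limma, and open diamonds are other probe sets annotated to the same gene alone. All 9 intervals lie below 0, and the dimmer gld-1 probe set at -0.42 lies nearest to 0.

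In the hour by hour comparisons most of the calls fell in the first hour. The first-hour share of the fitted change between 0 h and 4 h ran from 13.1% for nos-2 to 89% for meg-1. At 1 h glh-4 had a mean of 3.00, below the background mark, and meg-1 and gld-1 were near it at 3.66 and 3.97. Later losses in these dim genes could thus hardly show. At 1 h 7 of the 9 transcripts were lower than at 0 h, against 6.08% of all probe sets, and none was higher, against 3.3%. The 7 were nos-2, gld-1, meg-1, pgl-1, pgl-3, deps-1 and glh-4, with changes between -0.92 and -2.67, while glh-1 and glh-2 did not pass. Between 1 h and 2 h nos-2 alone of the 9 was lower, against 3.25% of all probe sets, and between 2 h and 3 h again nos-2 alone, against 1.9%. Between 3 h and 4 h limma called 0 of the 9 lower, against 0.692% of all probe sets, and 0 had an unadjusted p under 0.05 in either direction. With a trended, robust variance estimate limma also called 0. Against 0 h, 8 of the 9 were lower at 2 h and the same number at 3 h, where 8.53% and 8.89% of all probe sets were called lower. Many probe sets are dim throughout, and among the 12195 whose mean lay above the background mark 16.3% were lower at 4 h than at 0 h and 10.3% were lower at 1 h than at 0 h.

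On 1 h A, the array whose title and tag match, the first-hour differences of these 7 were of similar size, while fewer could be called from it alone. Without 1 h B and 1 h C the differences from 0 h were -0.93 for nos-2, -1.56 for pgl-1, -2.33 for pgl-3, -1.21 for glh-4, -2.08 for deps-1, -1.26 for meg-1 and -1.20 for gld-1. For glh-1 and glh-2 they were -0.07 and -0.20, against -1.06 and -0.83 on all 3 arrays. With a single 1 h array 3 of the 9 were called lower than at 0 h, namely nos-2 (adjusted p = 0.049), pgl-3 (adjusted p = 0.0022) and deps-1 (adjusted p = 0.037). Placed by the tags, which leaves the same single 1 h array and joins 1 h B and 1 h C to later times, the count was 1, pgl-3 (adjusted p = 0.0073), and 0 were called lower between 1 h and 2 h.

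**Figure D3:**
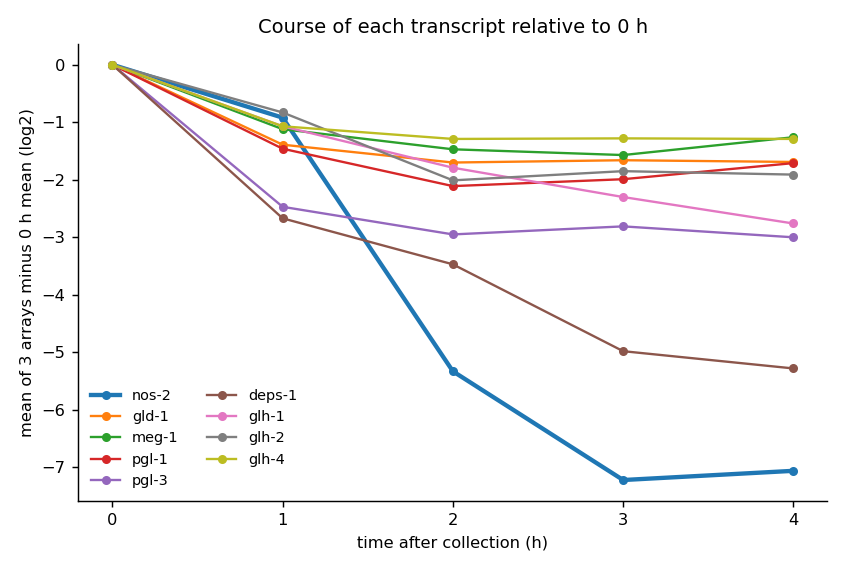
Mean of 3 arrays minus the 0 h mean in log2 units (vertical axis) against time after collection in hours (horizontal axis), one line per gene, nos-2 drawn thick. At 1 h nos-2 has changed by -0.92 and lies with the smaller changes, and from 2 h on it has the largest.

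Whether the genes differed from each other in course was asked for 6 pairs, by permuting the difference between both genes over the arrays, with p-values adjusted over the 6. The pairs were chosen with earlier results of these data known, so their p-values describe these arrays and are no independent evidence. At 1 h the change of nos-2 since 0 h was within 0.46 of that of gld-1 and within 0.20 of that of meg-1. At 2 h it was 3.64 below that of gld-1 and 3.87 below that of meg-1. At 4 h, with nos-2 set to the background mark, it was 4.83 below that of gld-1 and 5.26 below that of meg-1. gld-1 and meg-1 began at means of 5.36 and 4.78, against 9.74 for nos-2, and ended near the mark at 3.67 and 3.52. Their own changes may thus be understated, and the gaps are no bounds. How far the lower starting levels made the gaps was not tested. The permutation test with 100000 resamples gave an adjusted p of 0.00015 for each pair, and by the tags 0.096 for gld-1 and 0.075 for meg-1.

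Between the pgl genes the change since 0 h was smaller in pgl-1 than in pgl-3 at every later time. The gap was 1.01, 0.84, 0.81 and 1.29 log2 units at 1, 2, 3 and 4 h. Their courses did not differ past the threshold (adjusted p = 0.054, permutation test). Without 0 h A, the highest 0 h array of pgl-1, the 4 h gap was 1.52 and the pair passed (adjusted p = 0.047, permutation test). Without 2 h B it also passed (adjusted p = 0.0055). Under the other 16 of 18 alternatives the pair still did not pass. For the helicases, the difference in change was -0.84 between glh-1 and glh-2 (adjusted p = 0.57), -1.47 between glh-1 and glh-4 (adjusted p = 0.17) and -0.63 between glh-2 and glh-4 (adjusted p = 0.52, permutation tests). Only the glh-1 and glh-4 pair of these passed under another grouping, with an adjusted p of 0.041 by the tags and 0.047 without 1 h B and 1 h C. glh-4 ended below background, so its true change may be larger than its log2 value.

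For each of the 9 genes the 3 closest profiles over the 15 arrays were found among genes brighter than the background mark whose time means varied by at least 1 log2 unit, 4558 genes in all and 4559 for glh-4. These correlations describe arrays that share a time course and a normalization, and carry no test. Closest to nos-2 were spo-11, which makes the meiotic DNA breaks (r = 0.995), gna-2, a glucosamine-phosphate acetyltransferase of eggshell formation (r = 0.991), and syp-2, a part of the synaptonemal complex (r = 0.99). spo-11 had means of 8.35, 7.27, 4.24, 2.92 and 3.06 at 0, 1, 2, 3 and 4 h, so it too dropped most between 1 h and 2 h. Closest to pgl-1 were mex-3, car-1 and W06B4.1 (r = 0.944, 0.938 and 0.932), and closest to gld-1 were car-1, Y111B2A.1 and pygl-1 (r = 0.965, 0.949 and 0.942). car-1, an RNA-binding protein of P granules and P bodies, was also near glh-4 (r = 0.954), after zif-1 (0.964) and the yolk receptor gene rme-2 (0.956). Closest to deps-1 were zyg-11, R107.5 and mex-5 (r = 0.962, 0.959 and 0.954), with mex-5 coding for a zinc-finger protein that sets P granule position in the zygote. The chromatin factor gene xnd-1 was the third nearest to meg-1 (r = 0.933), after Y49G5B.1 (0.945) and F26G5.1 (0.936). pgl-3 lay nearest to F02H6.4, F55A11.7 and F12A10.8 (r = 0.977, 0.974 and 0.974). glh-1 (mdh-2, dmd-6 and mek-1, r = 0.92, 0.915 and 0.913) and glh-2 (F48A11.4, F35G2.1 and tmem-120, r = 0.941, 0.941 and 0.917) complete the set.

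The other genes of these pathways were counted from 8 lists, of which 112 genes were measured beside the 9. At 4 h 62 of the 112 were lower than at 0 h and 1 was higher, beside 9.57% and 7.11% of all probe sets. At 1 h 35 were lower than at 0 h and 2 higher, beside 6.08% and 3.3% of all probe sets. Of the 62, 14 had all 4 h arrays at or below the background mark, among them pgl-2, puf-8, puf-11, egg-1, wago-1 and him-5, so their log2 values here are fitted differences and the true changes may be larger. With such genes set to the mark the list medians moved by little, the most for the meiotic list (-2.65 in place of -2.85). Of the first 2 hours, the first brought the larger change in 46 of the 62 and the second in 16. The median share in the first hour was 57.6%. Later hours were left out of that comparison, and pid-1 had 1.8% of its change in the first hour and 38.6% in the second. The 1 h means include 1 h B, where some genes read lower than on the other 1 h arrays. oma-2 read 8.73, 4.64 and 8.50 on 1 h A, B and C, whereas lab-1 read 10.53, 10.74 and 10.40. The count was not repeated without 1 h B.

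Among 20 measured genes of P granule scaffold and assembly, 11 were lower at 4 h than at 0 h, with a list median of -1.59. They included pgl-2, the third PGL gene (-2.27, adjusted p = 0.00017 in limma), and mex-5 and its partner mex-6 (-4.50 and -4.96). lotr-1 and mip-1, which encode LOTUS-domain partners of the germ granule, changed by -3.58 and -3.51. meg-3, whose protein coats the PGL core, was 1.48 lower (adjusted p = 0.034), while meg-4 at -0.50 (adjusted p = 0.18), meg-2 at -0.13 and the helicase gene glh-3 at -0.11 did not pass. meg-2 lay at 2.77 at 4 h and 2.91 at 0 h, below the background mark at both times.

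sepa-1 and epg-2 of the same list rose in the hour in which pgl-1 and pgl-3 fell. They encode the receptor and the scaffold through which autophagy removes PGL granules from somatic cells. sepa-1 read 3.35, 3.49 and 4.01 at 0 h, 7.25, 6.86 and 7.66 at 1 h, and 9.20, 9.80 and 9.77 at 2 h. At 3 h it read 6.09, 5.98 and 6.48, and at 4 h 3.70, 3.94 and 3.62, among its 0 h values. It was thus a transient transcript, 12.5-fold above 0 h at 1 h (adjusted p = 6.1e-07 in limma) and 62.9-fold above 0 h at 2 h (adjusted p = 4e-09). epg-2 read 4.65, 3.22 and 3.73 at 0 h, 8.33, 8.18 and 9.09 at 1 h, and 11.04, 11.15 and 10.96 at 2 h. It stayed up, at 9.92, 9.73 and 9.79 at 4 h, 61.7-fold above 0 h (adjusted p = 3.5e-08). On 1 h A alone the rises above 0 h were 3.63 for sepa-1 and 4.47 for epg-2, which passed with 1 h B and 1 h C left out (adjusted p = 4.8e-05 and 5.6e-05) and missed the threshold with both placed by the tags (adjusted p = 0.11 and 0.058).

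**Figure D4:**
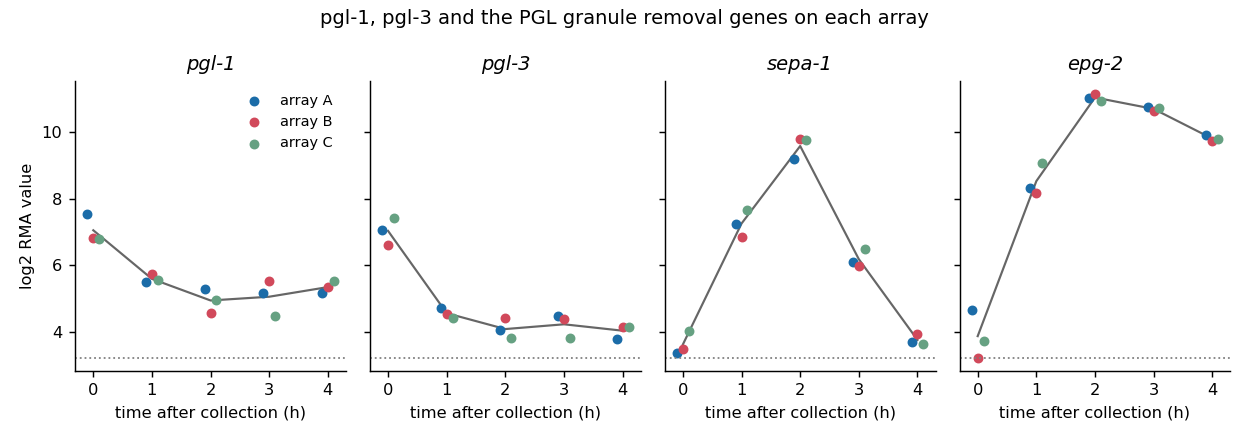
Log2 RMA values (vertical axis) of pgl-1, pgl-3, sepa-1 and epg-2 on every array against time after collection in hours (horizontal axis). Points are arrays A, B and C, lines join the means of 3 arrays, and the dotted line is the background mark of 3.22. The pgl transcripts are lowered by 1 h, while sepa-1 peaks at a mean of 9.59 at 2 h and epg-2 reaches 11.05 at 2 h and stays at 9.81 at 4 h.

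Of 11 further RNA regulators of the P lineage, 7 were lower at 4 h than at 0 h and none higher, with a median of -3.83. They were pos-1 (-6.35), oma-2 (-6.16), spn-4 (-4.83), pie-1 (-4.28), mex-3 (-4.14), daz-1 (-3.83) and oma-1 (-3.70). PIE-1 holds transcription off in the P blastomeres, and its transcript had 77.2% of its change in the first hour. pos-1, a zinc-finger translational regulator, had 66.9% of its change in the second hour, and nos-2 had 62.5% of its fitted change in that hour. mex-1, among the injected targets, had means of 4.63, 5.15, 6.60, 6.73 and 5.65 at 0, 1, 2, 3 and 4 h. Its difference between 4 h and 0 h did not pass (adjusted p = 0.34 in limma). It alone of this list had a 3 h mean above its 0 h mean, and 1 gene was called higher at 3 h than at 0 h.

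In the Nanos and Pumilio family 6 of 11 were lower at 4 h than at 0 h, and none was higher. nos-1, a Nanos gene that acts with nos-2 in the germ cells, read 4.13, 3.74 and 3.78 at 4 h against 5.04, 6.98 and 6.32 at 0 h, a change of -2.23 (adjusted p = 0.00078 in limma). puf-5, puf-7, puf-3, puf-11 and puf-8 changed by -5.88, -4.40, -4.14, -3.93 and -3.41. fbf-1 and fbf-2, which keep germline stem cells dividing in the adult, lay near the background mark at both times and did not pass.

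Among 12 regulators of germline sex and mitosis 6 were lower, glp-1 (-2.97), fog-2 (-2.58), rnp-8 (-2.24), fog-1 (-2.21), gld-3 (-1.74) and ego-1 (-1.34). glp-1 encodes the Notch receptor of the germline and early embryo. gld-2, the catalytic poly(A) polymerase that works with GLD-3, changed by -0.10 (adjusted p = 0.85). Of 18 transcripts known as targets of GLD-1 in the adult, 13 were lower, with a median of -4.27, among them cpg-1 and egg-1 of the eggshell and egg surface (-6.49 and -5.79). This list shares members with the others. The injected target pal-1 in it had means of 6.51, 8.20, 8.63, 7.31 and 7.13 at 0, 1, 2, 3 and 4 h. Its difference between 4 h and 0 h did not pass (adjusted p = 0.65 in limma).

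The small RNA genes of germ granules were more mixed, with 7 of 17 lower and a median of -0.79. pid-1, a piRNA factor, wago-1, an Argonaute of P granules, and prg-1, the Piwi Argonaute, changed by -5.54, -5.35 and -3.76. csr-1 (-0.39, adjusted p = 0.45) and the nuclear Argonaute gene hrde-1 (-0.18, adjusted p = 0.7) did not pass and lay near background.

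Genes for meiotic chromosome axes and recombination had 19 of 21 members lower and a median of -2.85. lab-1, which protects sister chromatid cohesion, read 10, 10.68 and 10.43 at 0 h and 10.53, 10.74 and 10.40 at 1 h. At 2 h it had dropped to 4.84, 6.35 and 5.59, a difference of -4.97 from 1 h (adjusted p = 1.3e-06 in limma), so that its whole decline followed the first hour. him-5, needed for breaks on the X chromosome, instead had 73.2% of its change of -5.95 in the first hour.

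Of 13 measured genes of germline chromatin, xnd-1 was lower at 4 h than at 0 h (-2.98, adjusted p = 1e-04 in limma), and the list median was -0.03. The list had 1 gene of 13 called lower, a share near the 9.57% of all probe sets. mrg-1, a chromodomain protein required in the primordial germ cells, averaged 10.12 at 4 h and 10.18 at 0 h and did not pass (adjusted p = 0.88). mes-4, a histone methyltransferase of the germline, averaged 6.55 at 4 h and 5.68 at 0 h, a difference of 0.88 that did not pass (adjusted p = 0.32). No test compared the lists with one another.

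**Figure D5:**
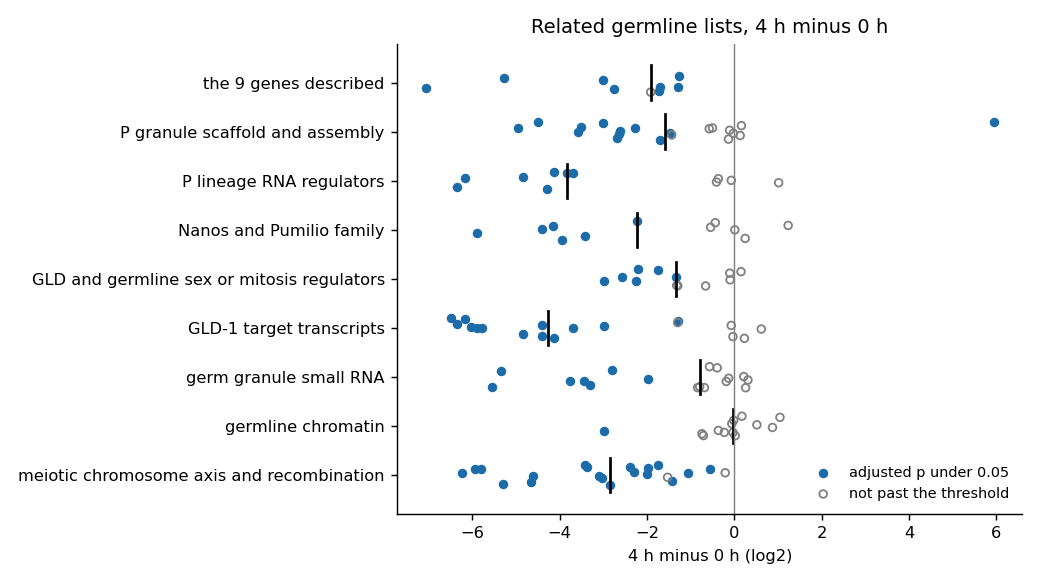
Difference between 4 h and 0 h in log2 units (horizontal axis) for the 9 genes and for 8 lists of related germline genes (rows), one point per gene. Filled points passed an adjusted p under 0.05, open points did not, and the black bar is the median of the row, from -4.27 for the GLD-1 targets to -0.03 for germline chromatin. The single point far to the right is epg-2.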

How the data were processed

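Total RNA from 15 embryo samples, 3 at each of 5 times, was labelled and hybridised to 1-colour Affymetrix arrays, per the labels' protocols. The deposited table gives 22625 probe sets as log2 values, which the authors obtained by RMA according to the submitters' processing notes (version not given in the sources used here). RMA corrects background, normalizes between arrays and compresses low values, so differences of dim transcripts are understated. That the scale is log2 follows from the range of the values, 1.77 to 14.2. The number of arrays limits the precision, and scanner files were not used here.

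Every column matched a sample by its name, and the title of a sample set its time. The 77 control probe sets were left out, and the other 22548 entered a model of all 5 times with a shared spread (limma 3.58.1, functions lmFit and eBayes, R 4.3.3). Calls were made at an adjusted p under 0.05 (Benjamini-Hochberg, over the 22548). Symbols came from the platform annotation, updated through the WBcel235 gene table for names only. Coordinates are left out, as the build behind the annotation is not named. The procedure was tested on simulated data. A later mean below the background mark was set to the mark for an "at least" fold.

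All 9 genes are named, together with the 3 nearest profiles of each. List genes were named after their values were seen. The genes, pairs and lists were chosen with earlier results of these data known, so neither list counts nor pair tests are independent support. Alternatives were the time tags, leaving out doubtful arrays or each array in turn, the replicate letters as a block, 3 scalings, a filter on dim probe sets, another variance estimate, and the mean of all probe sets of a gene. The count of yolk and sperm transcripts without doubtful arrays was added after seeing the data.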

Additional observations from a re-analysis of the deposited data

How the results depend on the processing

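The count of 8 genes lower at 4 h than at 0 h moved by no more than 1.5 times under all 24 alternatives, and nos-2, pgl-1, pgl-3, glh-1, deps-1, meg-1 and gld-1 passed in each of them, as did glh-4 in the 23 that kept it. No difference changed sign. glh-2 passed in 7 of the 24, with values between -1.27 and -3.24 over all of them. It passed without 1 h B and 1 h C (adjusted p = 0.032), under the dim filter (0.034), under the trended variance (0.035), and when centred on hybridisation controls (-2.87) or ribosomal protein genes (-3.24). The first-hour call of meg-1 was lost in 6 of 24. Those of pgl-1, glh-4 and gld-1 were lost by the tags and without 1 h B and 1 h C, and that of glh-1 at 2 h without 0 h C and without 2 h A.

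By the tags the counts of genes lower were 1 at 1 h than at 0 h, 0 at 2 h than at 1 h and 0 at 3 h than at 2 h. By the tags the pairs gave -1.47 for glh-1 and glh-4 (adjusted p = 0.041), -5.80 for nos-2 and meg-1 (0.075) and -5.37 for nos-2 and gld-1 (0.096, permutation tests). As nos-2 ended below background, its values in both pairs are fitted differences. With nos-2 set to the mark the gaps were 5.26 to meg-1 and 4.83 to gld-1, which ended near the mark themselves. Without 1 h B and 1 h C, 3 were lower at 1 h than at 0 h and 2 at 3 h than at 2 h, and glh-1 and glh-4 gave -1.47 (0.047). Leaving out each array in turn, 1 to 2 were lower at 3 h than at 2 h (2 without 1 h B). In the same runs the 4 h gap between pgl-1 and pgl-3 ran from 0.973 to 1.52. Centred on ribosomal protein genes, 9 were lower at 2 h than at 1 h, but so were 82.5% of all probe sets, whose median moved to -1.11. In the same way 105 of the 112 list genes were lower at 4 h than at 0 h, beside 89.8% of all probe sets. That scaling moved the median of all probe sets between 0 h and 4 h to -1.24, that on hybridisation controls to -0.865, and that on array medians to -0.02, and under each the differences of all 9 genes lay below the shifted median. The cause was not tested.

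Same-lettered arrays of different times did not deviate together (30 pairs, median r = 0.033, 9 over 0.1), so the letters were not taken as pairs. With the letters as a block 8 genes were again lower at 4 h than at 0 h, 7 at 1 h than at 0 h and 62 of the list genes at 4 h than at 0 h.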
